A study of Mus musculus with 6 samples.

Results

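The collagen folding, hydroxylation and crosslinking genes examined here were P4ha1, P4ha2, P4ha3, Plod1, Plod2, Serpinh1, Lox, Loxl1, Loxl2 and Loxl3. They were chosen by gene symbol, and all 10 were found among the 14831 genes of the count table. Expression was measured by RNAseq in 6 libraries of immortalized mouse pancreatic fibroblasts of mixed strain. Of these, 3 libraries were labelled WT and 3 were labelled Gli2-/-;Gli3-/-, called KO in the sample titles. Per the study's methods, such lines came from the pancreas of adult mice with floxed Gli alleles and were sorted by FACS. Control cells received an adenovirus that expresses eGFP and a dsRed lentivirus, and KO cells received eGFP and Cre adenoviruses. All cells were cultured in DMEM with calf serum until confluent, with 1 well for each library. The sources used here do not say whether the wells of a group came from more than 1 line, so p-values measure the spread between wells, which may be technical. Because these are bulk libraries, fewer cells of a type and less RNA per cell cannot be told apart.

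Procollagen chains are modified in the endoplasmic reticulum (ER) before they fold. Prolyl 4-hydroxylase, built from an α subunit (P4ha1, P4ha2 or P4ha3) and the β subunit P4hb, hydroxylates prolines that keep the triple helix stable at body temperature. Lysyl hydroxylases (the Plod genes) modify lysines that later take part in crosslinks, and Serpinh1 encodes HSP47, a chaperone that binds the folded triple helix. After secretion, the lysyl oxidases (Lox and the Loxl genes) oxidize lysines and hydroxylysines in collagen and elastin, which starts covalent crosslinking. Fibroblasts are the main collagen producers of the pancreas, and these enzymes are widely studied in fibrotic pancreatic tumour stroma.

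The libraries held between 31728420 and 41035931 counts on genes, and 14289 genes passed the expression filter and were tested with edgeR. A gene was called where its Benjamini-Hochberg adjusted p over all tested genes was under 0.05 and its change at least 1.5-fold. Changes are log2 fold changes of labelled KO over labelled WT with their standard errors (SE), and p values are edgeR's adjusted values unless named otherwise. The targeted genes went against the labels at the level of whole-gene counts. For Gli2, labelled WT gave 809, 944 and 868 counts and labelled KO gave 1932, 2316 and 1926. For Gli3, labelled WT gave 392, 416 and 398 counts and labelled KO gave 1434, 1637 and 1404. Both had more counts in every library labelled KO, and reads on the floxed exons cannot be separated in such counts. The study reported checking Gli deletion in its fibroblast lines by qPCR and western blot. It also reported that its Gli2/Gli3 KO fibroblasts did not respond to Hedgehog stimulation but kept a baseline level of Gli1 expression. Unlike Gli2 and Gli3, the Hedgehog target genes Ptch1 and Gli1 were lower in labelled KO. Ptch1 had 7046, 7912 and 7834 counts in labelled WT against 2732, 3416 and 2851. The scarce Gli1 had 40, 50 and 37 counts against 4, 10 and 13. Every direction given for these genes therefore refers to the libraries as labelled.

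Several cell type markers also differed between the groups, where 11.6% of all tested genes were called higher and 6.1% lower. All 4 mesothelial markers were called higher in labelled KO, and their summed level was 21.5 to 24.4 CPM (counts scaled to library size) in labelled WT and 267.0 to 267.4 CPM in labelled KO. Of 7 tested fibroblast markers (10 listed, with Pdpn and Fap not analysed here), S100a4 was called higher and Pdgfra, Pdgfrb and Dcn lower. Thy1, with 4, 1 and 0 counts in labelled WT and 19, 15 and 9 in labelled KO, was not tested. The summed fibroblast markers were at 36041 to 38082 CPM in labelled WT and 32310 to 33671 CPM in labelled KO. Most of this came from Col1a1 (means of 15982 and 16113 CPM) and Col1a2 (13233 and 11589 CPM). Of 6 epithelial markers, Krt7, Cdh1 and Krt8 were analysed here. They summed to 4.29 to 5.23 CPM in labelled WT and 23.9 to 24.4 CPM in labelled KO, most of it from Krt7. Krt7 and Cdh1 were called higher. Krt8, with 1, 0 and 2 counts in labelled WT and 7, 9 and 12 in labelled KO, was too low to test. The 3 of 6 macrophage markers analysed here summed to 38.4 to 45.5 CPM over all 6 libraries. Most of this was Lyz2, with means of 41.1 CPM in labelled WT and 36.6 CPM in labelled KO. None of the 3 was called by edgeR, DESeq2 or limma-voom (2 at an unadjusted p under 0.05). Of 6 mural markers, Acta2 (means of 1893 and 1903 CPM) and Notch3 were analysed here, and of 5 endothelial markers only the scarce Vwf. Neither the mural markers nor Vwf were called by edgeR. The part of the cell type markers in the results below was not tested.

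Across the 10 genes, the hydroxylases and the chaperone differed by under 1.5-fold between the groups, while the lysyl oxidases differed from each other in direction and size. Loxl1 and Loxl2 were called lower in labelled KO. By edgeR 0 of the 10 were called higher, as by DESeq2 and limma-voom, and 4 were higher at an unadjusted p under 0.05 (P4ha1, P4ha2, Plod1 and Lox). In all tested genes, 17.7% were called, 11.6% higher and 6.1% lower. Without the fold limit, 3 of the 10 genes were higher (P4ha1, P4ha2 and Lox) and 3 lower (Loxl1, Loxl2 and Loxl3), where 58.7% of all tested genes passed, 29.9% higher and 28.8% lower. The groups did not overlap in CPM for 7 of the 10 genes, against 64.2% of all tested genes. For 8 of the 10 the 95% interval of the change lay wholly inside 1.5-fold either way, which held for 66.3% of all tested genes. The median log2 fold change was 0.06 over the 10 genes and 0.00 over all tested genes, and the median size of a change was 0.14 against 0.22.

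**Figure D1:**
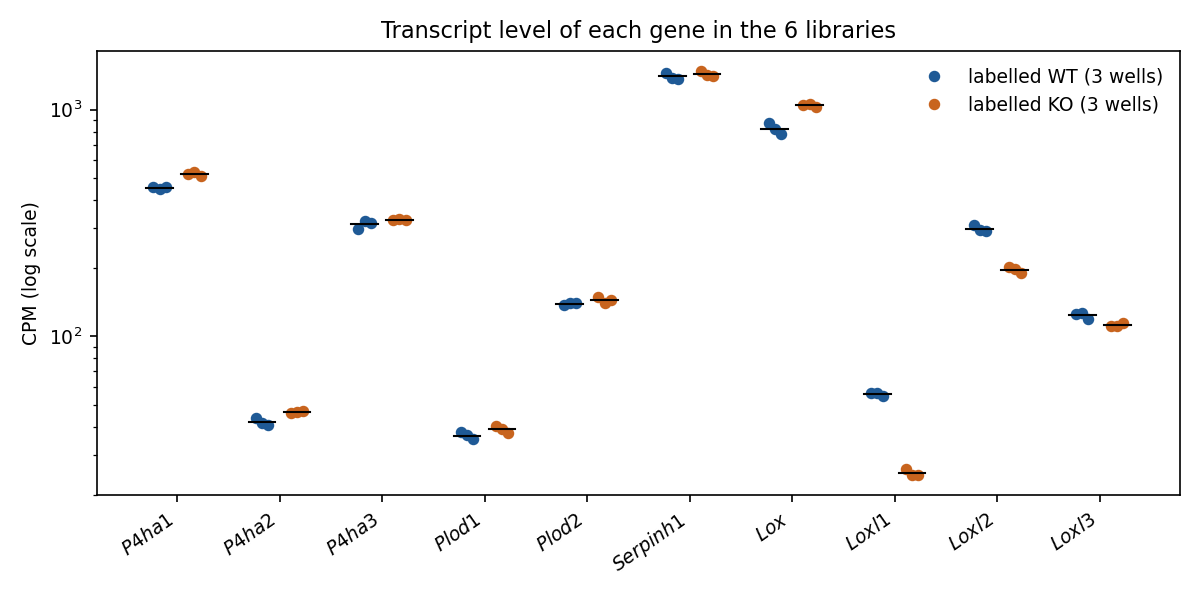
Level of each gene in CPM on a log axis, with 1 point per library (blue, labelled WT; orange, labelled KO) and a black line at the group mean (n = 3 each). Loxl1 and Loxl2 sit lower in all 3 libraries labelled KO and Lox sits higher, while the points of Plod1, Plod2 and Serpinh1 overlap between the groups.

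RefSeq promoter sequences of Plod2, Lox, Loxl1, Loxl2 and Loxl3 were not searched. Such sequences were searched for 5 of the 10 genes (P4ha1, P4ha2, P4ha3, Plod1 and Serpinh1). For each, the 250 bases before the start site were searched on both strands for the GLI site GACCACCCA and for the hypoxia response element cores ACGTG and GCGTG, since prolyl 4-hydroxylase genes are known hypoxia targets and the study deleted GLI factors. The cores can overlap each other on opposite strands. The windows of P4ha1, P4ha3 and Serpinh1 are printed because they belong to the 3 most abundant transcripts among these 5 genes, given 5′ to 3′ on the gene's own strand (GRCm38.p6), with core matches in capitals. They lie at chr10:59323046-59323295 on the plus strand, chr7:100285270-100285519 on the plus strand and chr7:99353240-99353489 on the minus strand, respectively.
P4ha1: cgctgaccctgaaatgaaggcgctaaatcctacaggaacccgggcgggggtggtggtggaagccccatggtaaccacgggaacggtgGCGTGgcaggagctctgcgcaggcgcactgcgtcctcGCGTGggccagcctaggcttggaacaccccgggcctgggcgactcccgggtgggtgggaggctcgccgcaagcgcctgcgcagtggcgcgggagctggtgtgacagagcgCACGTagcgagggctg
P4ha3: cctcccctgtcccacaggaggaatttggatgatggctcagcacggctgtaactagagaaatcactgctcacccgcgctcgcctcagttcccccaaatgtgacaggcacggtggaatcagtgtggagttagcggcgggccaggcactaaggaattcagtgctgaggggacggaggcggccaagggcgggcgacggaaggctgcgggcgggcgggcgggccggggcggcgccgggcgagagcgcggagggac
Serpinh1: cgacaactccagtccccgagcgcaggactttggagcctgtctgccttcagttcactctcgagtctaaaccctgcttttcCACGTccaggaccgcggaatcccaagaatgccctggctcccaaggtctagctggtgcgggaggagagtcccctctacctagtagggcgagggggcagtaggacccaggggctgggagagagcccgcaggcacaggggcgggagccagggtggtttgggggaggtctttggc
P4ha1 held 3 core matches, Serpinh1 held 1 and P4ha3 held 0. Cores were present in 4 of the 5 searched windows, which include no lysyl oxidase gene, and in 38.6% of 32851 windows of the same length. The letters of the GLI site were in 0 of the 5 windows and in 0.225% of all windows. A match describes letters only, and no match says nothing of a factor's binding elsewhere.

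P4ha1 and P4ha3 were the abundant α subunit genes, and P4ha1 was slightly higher in labelled KO. P4ha1 (chromosome 10, 59323296 to 59373304 in GENCODE M21 on GRCm38, the source of all gene positions) had 457, 446 and 454 CPM in labelled WT and 520, 528 and 511 CPM in labelled KO. No library labelled KO was as low as any labelled WT. Its log2 fold change was 0.20 ± 0.03 (SE, adjusted p = 4.60e-05), a level 14.9% higher and short of the 1.5-fold limit.

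P4ha2 (chromosome 11, 54100095 to 54131665), the minor α subunit gene here, had 43.8, 41.6 and 40.8 CPM in labelled WT and 45.9, 46.4 and 47.1 CPM in labelled KO. The groups did not overlap, but the gap between the nearest libraries was small. The log2 fold change was 0.14 ± 0.04 (SE, adjusted p = 0.00731). P4ha3 (chromosome 7, 100285520 to 100319699) had 298, 323 and 316 CPM in labelled WT and 324, 328 and 326 CPM in labelled KO. Its highest library labelled WT reached almost the level of the KO libraries, and the change did not pass (log2 fold change 0.06, 95% interval -0.01 to 0.13, adjusted p = 0.141).

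Per kilobase of exon (the union of all annotated exons), so that genes of different length can be compared, P4ha1 supplied 52.1, 49.7 and 50.7% of α subunit transcripts in labelled WT and 53.3, 53.4 and 52.7% in labelled KO. The group means differed by 2.32 percentage points and the groups did not overlap, but the exact permutation p of 0.1 (two-sided) is the smallest that 3 against 3 can give, so the design cannot reach 0.05. P4ha3 accounted for 46.1% ± 1.39 and 43.7% ± 0.309 (SD, n = 3 each), and P4ha2 for 3.12% ± 0.155 and 3.13% ± 0.0600. Which of P4ha1 and P4ha3 leads depends on the length used: with each gene's longest transcript, P4ha1 supplied 43.8% ± 1.18 in labelled WT and 46.0% ± 0.377 in labelled KO, and P4ha3 led with 50.8% ± 1.42 and 48.5% ± 0.281. The difference in the P4ha1 share was then 2.25 points. With either length P4ha2 was the least abundant. The summed α subunit level was 216 ± 2.85 CPM per kb in labelled WT and 238 ± 2.37 in labelled KO. P4hb, the shared β subunit, which also works as a protein disulfide isomerase, was at 334 and 393 CPM per kb, with a log2 fold change of 0.24 ± 0.03 (SE, adjusted p = 2.45e-05). The annotated exons of P4ha2 cover 6239 bases and its longest transcript 3060.

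Of the lysyl hydroxylases, neither Plod1 nor Plod2 passed the test. Plod1 (chromosome 4, 147909753 to 147936767), which acts mainly on lysines of the triple helix, had 37.8, 36.6 and 35.1 CPM in labelled WT and 40.4, 39.2 and 37.5 CPM in labelled KO, and the groups overlapped. The log2 fold change was 0.10 (95% interval 0.00 to 0.19, adjusted p = 0.0764). Plod2 (chromosome 9, 92542223 to 92608428), which hydroxylates telopeptide lysines, had 138, 140 and 141 CPM in labelled WT and 149, 140 and 145 CPM in labelled KO. Labelled KO replicate 2 lay among the libraries labelled WT. Its log2 fold change was 0.05 (95% interval -0.02 to 0.12, adjusted p = 0.187). The upper ends of these intervals are 1.14-fold for Plod1 and 1.09-fold for Plod2.

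Plod3, whose product also transfers sugars to hydroxylysine, supplied the largest part of the Plod transcripts per kb, with 62.5% ± 0.901 in labelled WT and 60.5% ± 0.932 in labelled KO (SD, n = 3 each). Plod2 supplied 30.1, 31.0 and 32.1% in labelled WT and 33.2, 31.5 and 32.8% in labelled KO, which overlapped (exact permutation p = 0.2, two-sided). Plod1 supplied 6.48% ± 0.101 and 7.01% ± 0.228. The Plod genes summed to 83.3 ± 1.79 and 82.4 ± 0.433 CPM per kb, and Plod3 had a log2 fold change of -0.06 (adjusted p = 0.104). On a per kb scale the order Plod3, Plod2, Plod1 was the same in all 6 libraries. Without knowledge of strand in the counting, reads on exonic bases shared with a gene on the opposite strand cannot be told apart. Plod2 shares 346 such bases with Gm38391, and Plod3 shares 529 with Znhit1.

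Serpinh1 was the most abundant of the 10 genes and did not pass the test. It had 1454, 1383 and 1368 CPM in labelled WT and 1479, 1426 and 1411 CPM in labelled KO. The groups overlapped, since labelled WT replicate 1 was above 2 libraries labelled KO. Serpinh1 (chromosome 7, 99345376 to 99353239) had a log2 fold change of 0.04 ± 0.03 (SE, 95% interval -0.03 to 0.11, adjusted p = 0.328). Relative to its main client, type I collagen (Col1a1 plus Col1a2, per kb), the log2 ratio was -2.63, -2.61 and -2.59 in labelled WT and -2.51, -2.50 and -2.56 in labelled KO. All 3 ratios in labelled KO were above those in labelled WT, by 0.08 on average on the log2 scale (exact permutation p = 0.1, two-sided). Over the 4 ratios and shares tested this way, the adjusted p was 0.133 for this ratio and for the P4ha1 and Lox shares, and 0.2 for the Plod2 share.

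**Figure D2:**
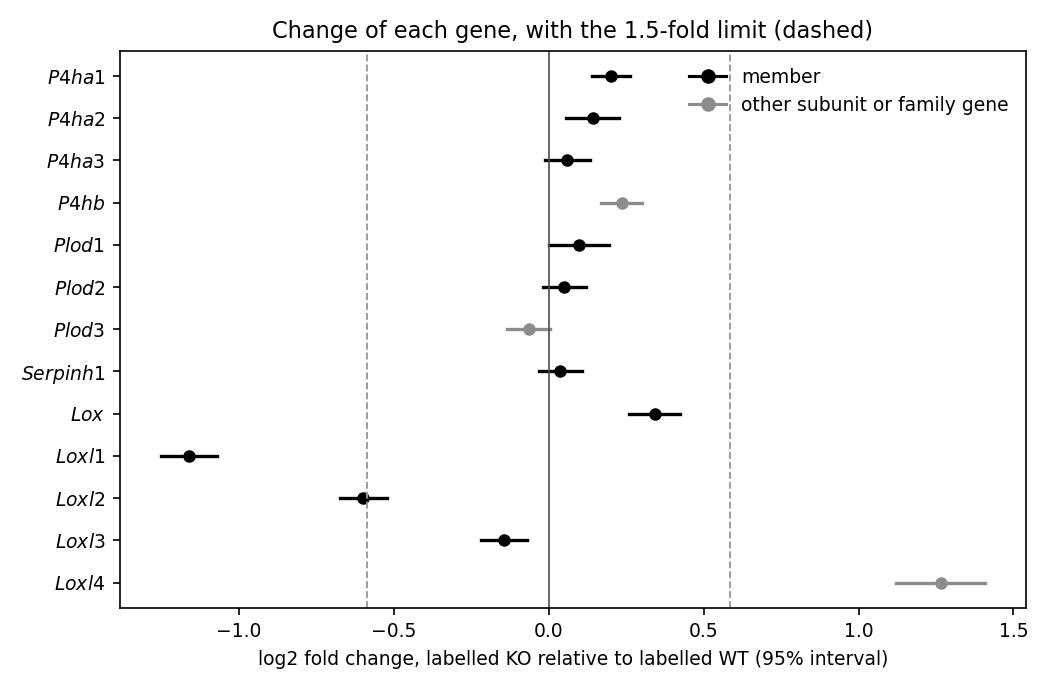
Log2 fold change of each gene with its 95% interval from edgeR (points and bars; black, the 10 genes; grey, P4hb, Plod3 and Loxl4 for comparison), with dashed lines at 1.5-fold. The intervals of the hydroxylases and Serpinh1 lie inside the dashed lines, the interval of Loxl1 lies wholly outside, and that of Loxl2 crosses the limit.

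The lysyl oxidases were not all on the same side: Lox and Loxl4 were higher in labelled KO, and Loxl1, Loxl2 and Loxl3 were lower. Lox itself (chromosome 18, 52516067 to 52529867), the founding enzyme of the family, had 873, 817 and 778 CPM in labelled WT and 1045, 1055 and 1031 CPM in labelled KO. All libraries labelled KO were higher than all labelled WT. The log2 fold change was 0.34 ± 0.04 (SE, adjusted p = 6.27e-06), or 26.8% higher, which is short of 1.5-fold. Its exons share 30 bases with AC161119.1 on the opposite strand.

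Loxl1 (chromosome 9, 58287738 to 58313186), which is best known for its part in elastic fibre upkeep, had the largest change of the 10 genes. It had 56.5, 56.3 and 54.7 CPM in labelled WT and 26.1, 24.5 and 24.4 CPM in labelled KO. The lowest labelled WT library was far above the highest labelled KO. Loxl1 fell by 1.16 on the log2 scale (SE 0.04, adjusted p = 1.49e-10), and was 2.24-fold lower.

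Loxl2 (chromosome 14, 69609068 to 69695834), which crosslinks type IV as well as fibrillar collagen, had 310, 294 and 291 CPM in labelled WT and 202, 198 and 191 CPM in labelled KO. The groups were well apart. It fell by 0.60 on the log2 scale (SE 0.03, adjusted p = 1.36e-08), and was 1.51-fold lower. This lies at the edge of the 1.5-fold limit, with a 95% interval from -0.67 to -0.52. The call was lost without labelled WT replicate 1 (log2 fold change -0.57) or labelled KO replicate 3 (-0.57), in each case because of the fold limit. Loxl2 exons share 7 bases with Mir6950 and 301 with Gm27177, on the same and the opposite strand.

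Loxl3 (chromosome 6, 83034173 to 83052562), another fibrillar crosslinking enzyme, had 126, 126 and 119 CPM in labelled WT and 111, 111 and 114 CPM in labelled KO. Although the groups did not overlap, the difference was small: it had a log2 fold change of -0.14 ± 0.03 (SE, adjusted p = 0.00291), or 0.905 of the labelled WT level. A stretch of 535 exonic bases is shared with Htra2 on the opposite strand. Loxl4, the remaining family gene, had 8.20, 8.06 and 7.20 CPM in labelled WT and 18.5, 19.2 and 18.7 CPM in labelled KO. It was called higher, with a log2 fold change of 1.26 ± 0.07 (SE, adjusted p = 5.23e-09), from a low level.

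Lox supplied the largest part of the family transcripts in every library. Per kb, it made up 63.8, 62.9 and 62.5% of family transcripts in labelled WT and 74.8, 75.2 and 75.0% in labelled KO. The difference of 11.9 percentage points was many times the spread between wells (SD 0.672 and 0.234 points), but the exact permutation p was 0.1 (two-sided), the smallest possible, and the test did not pass 0.05. With longest transcripts the difference was 11.9 points as well. Loxl2 was at 20.2% ± 0.367 and 12.5% ± 0.258, Loxl3 at 9.85% ± 0.277 and 8.36% ± 0.243, Loxl1 at 6.21% ± 0.201 and 2.60% ± 0.0931, and Loxl4 at 0.680% ± 0.0242 and 1.53% ± 0.0290 (SD, n = 3 each). Summed over the family the level was 273 ± 12.9 CPM per kb in labelled WT and 291 ± 3.04 in labelled KO. The total thus differed by far less than the shares of Loxl1 and Loxl2.

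**Figure D3:**
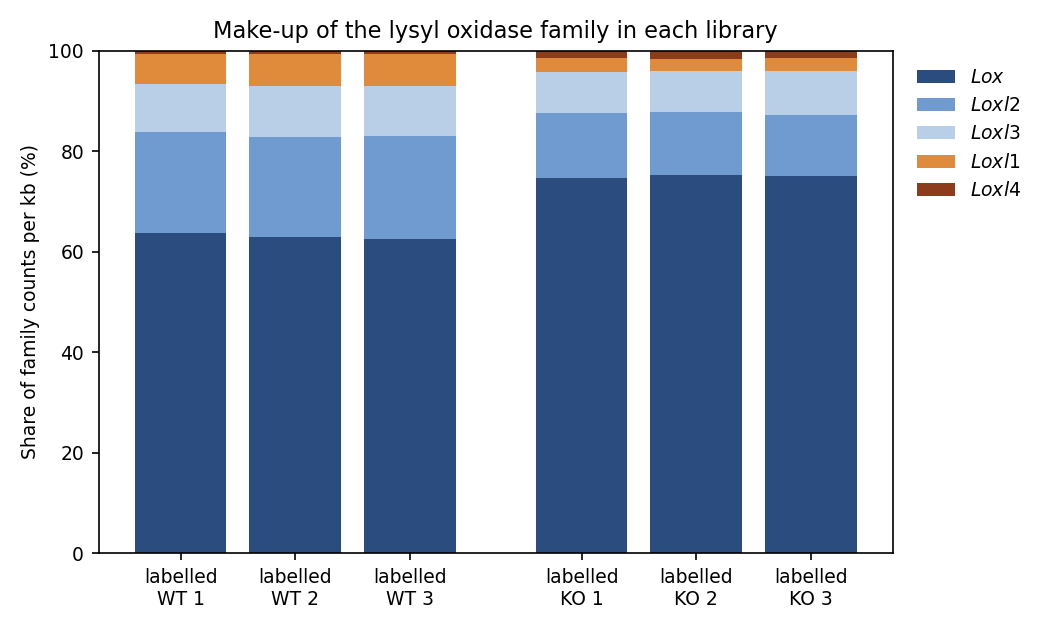
Share of lysyl oxidase family counts per kb (percent) supplied by each of the 5 family genes, with 1 stacked bar per library. Lox fills 62.5 to 63.8% of the bar in the libraries labelled WT and 74.8 to 75.2% in those labelled KO.

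Ordered by level per kb of exon union in labelled WT, the 10 genes ran from Serpinh1 (574 CPM per kb) through Lox (172), P4ha1 (110), P4ha3 (99.7), Loxl2 (55.2), Loxl3 (26.9), Plod2 (25.9), Loxl1 (16.9) and P4ha2 (6.75) to Plod1 (5.40). Loxl3 and Plod2 overlapped across libraries, and all other neighbours were apart. In labelled KO the order was Serpinh1 (589), Lox (218), P4ha1 (126), P4ha3 (104), Loxl2 (36.5), Plod2 (26.8), Loxl3 (24.3), Loxl1 (7.58), P4ha2 (7.45) and Plod1 (5.77). Here Loxl1 and P4ha2 overlapped, and Plod2 lay above Loxl3 in all 3 libraries. Several of these places depend on the length used. With the longest transcript in its place, P4ha3 was above P4ha1 in both groups (130.1 and 112 CPM per kb in labelled WT, 136 and 129 in labelled KO), and Plod2 was above Loxl3 in labelled WT (38.1 and 30.2). In labelled KO, Plod2 was then above Loxl2 (39.4 and 37.1), and P4ha2 (15.2) and Plod1 (9.53) were above Loxl1 (7.58). Serpinh1 and Lox led with either length.

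The genes that work beside these enzymes in the ER were described from a list of 16, of which 15 were tested. None of the 15 was called by edgeR, DESeq2 or limma-voom, where edgeR called 17.7% of all tested genes. Without the fold limit 7 were higher and 2 lower, the same counts as at an unadjusted p under 0.05. Over all tested genes, 29.9% were higher and 28.8% lower without the fold limit. All 15 intervals lay inside 1.5-fold, which held for 66.3% of all tested genes. The median log2 fold change was 0.06. Crtap, a subunit of the prolyl 3-hydroxylation complex, was at 126, 124 and 118 CPM in labelled WT and 160, 152 and 148 CPM in labelled KO, with a log2 fold change of 0.32 (adjusted p = 1.11e-05). Ppib, the cyclophilin of the same complex, had a log2 fold change of 0.23 (adjusted p = 4.01e-05), and P3h1, its catalytic subunit, one of -0.19 (adjusted p = 0.00216). The subunits of this complex therefore did not share a direction. Colgalt1, which adds galactose to hydroxylysine, had a log2 fold change of 0.28 (adjusted p = 2.51e-05).

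Of 16 tested genes for procollagen export and propeptide removal, 4 were called higher and 0 lower by edgeR, DESeq2 and limma-voom alike. Over all tested genes, edgeR called 11.6% higher and 6.1% lower. The median log2 fold change of the 16 was 0.07, and was the same with Adamts3 set at its lower bound. The 4 called genes were all scarce, and Adamts3 and Pcolce2 passed the expression filter through labelled KO, where they are high. With at least 10 counts required in every library, 14 were tested and 2 called, both higher (Tll1 and Adamts14). Tll1, a procollagen C-proteinase, had 54, 45 and 25 counts in labelled WT and 421, 397 and 365 in labelled KO (log2 fold change 3.07, adjusted p = 1.13e-08). Pcolce2, an enhancer of that cleavage, had 24, 4 and 3 counts against 106, 110 and 51 (log2 fold change 2.90, and 4.45 without labelled WT replicate 1). Adamts3, a procollagen N-proteinase, had 0 counts in every library labelled WT and 19, 18 and 15 in labelled KO, at least 5.1-fold higher against a floor of 3 counts per library. Adamts14, of the same class, had 29, 35 and 41 counts against 64, 71 and 51 (log2 fold change 0.64), and was not called without labelled WT replicate 1 (0.54) or labelled KO replicate 1 (0.58). Pcolce and Bmp1, both abundant, were lower without reaching 1.5-fold. Pcolce, another enhancer of that cleavage, was at 1004 ± 10.1 CPM in labelled WT and 757 ± 14.6 in labelled KO (log2 fold change -0.41, adjusted p = 6.56e-08), and Bmp1, the main C-proteinase, had a log2 fold change of -0.17 (adjusted p = 0.000208). Without the fold limit, 8 of the 16 were higher and 5 lower, the same counts as at an unadjusted p under 0.05. Over all tested genes, 29.9% were higher and 28.8% lower without the fold limit.

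Of 10 tested genes for other crosslinking, fibre assembly and collagen uptake, 2 were called higher and 2 lower. Over all tested genes, 11.6% were called higher and 6.1% lower. The median log2 fold change of the 10 was -0.11. Besides Loxl4, Fbln5, which tethers lysyl oxidase-like enzymes to elastic fibres, was higher, at 279, 287 and 290 CPM in labelled WT and 524, 542 and 551 CPM in labelled KO (log2 fold change 0.92, adjusted p = 7.97e-11). Tgm2, a transglutaminase that crosslinks matrix by another bond, fell by 1.29 on the log2 scale (adjusted p = 2.93e-11), from 563 ± 32.3 to 230.4 ± 2.46 CPM. Dcn, the proteoglycan decorin that coats collagen fibrils, fell by 1.55 (adjusted p = 1.51e-12). Eln, the elastin precursor on which Loxl1 acts, had 4, 2 and 1 counts in labelled WT and 12, 12 and 11 in labelled KO and was not tested. Over the 41 tested genes of the ER, export and crosslinking lists, 8 were called, 6 higher and 2 lower, and 6 with at least 10 counts in every library, 4 higher and 2 lower.

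The substrates were read from 16 collagen chain genes, of which 2 were called higher and 3 lower. Over all tested genes, 11.6% were called higher and 6.1% lower. The median log2 fold change of the 16 was 0.01. Col1a1 was at 15982 ± 871 CPM in labelled WT and 16113 ± 408 in labelled KO, a log2 fold change of 0.01 (95% interval -0.07 to 0.09, adjusted p = 0.799), whose sign turned when single libraries were left out. Col1a2 had a log2 fold change of -0.19 (adjusted p = 5.96e-05). Col3a1, a fibrillar chain often found with type I, had 286948, 300485 and 280374 counts in labelled WT and 172427, 186740 and 154635 in labelled KO, and fell by 0.94 on the log2 scale (adjusted p = 1.03e-10). Col8a1 fell by 1.83 on the log2 scale, and the fibril-associated Col14a1 fell by 4.65, while the minor fibrillar chains Col5a3 (log2 fold change 1.48) and Col11a1 (3.11, from 4, 2 and 3 counts to 29, 27 and 35) were called higher. Col11a1 passed the filter through labelled KO and was not tested where each library had to hold 10 counts or more. The type I chains thus changed by under 1.5-fold, as the hydroxylases and Serpinh1 did, while the also abundant Col3a1 was 1.92-fold lower. Over all tested genes, 66.3% had a 95% interval wholly inside 1.5-fold either way.

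**Figure D4:**
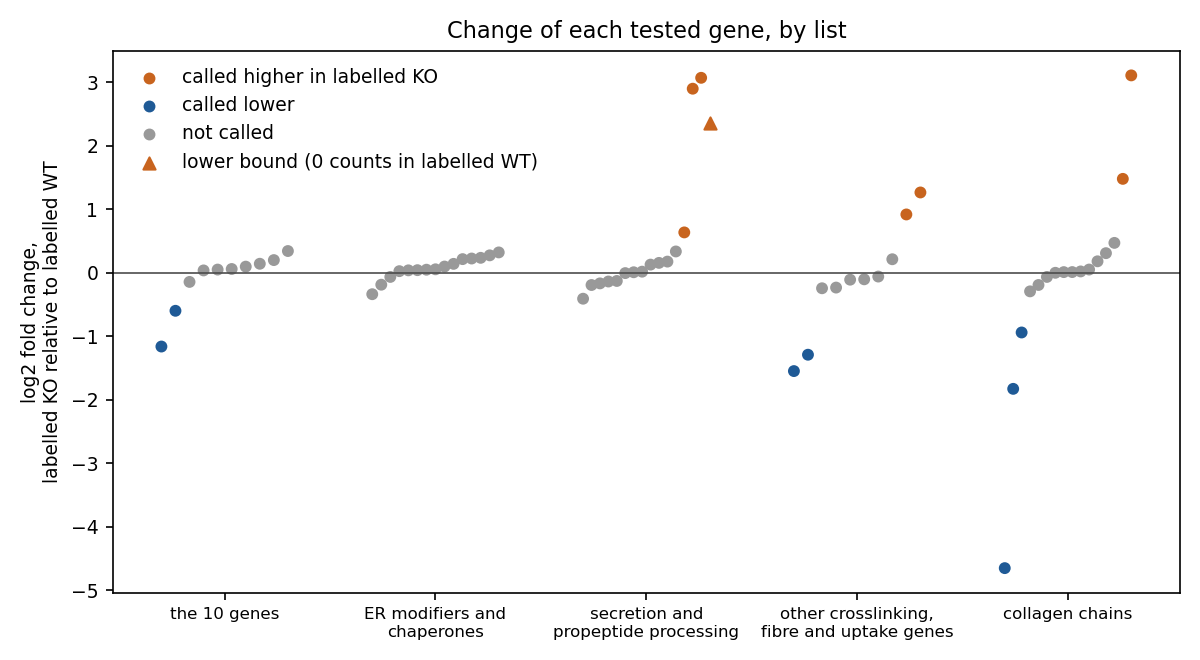
Log2 fold change of every tested gene in each list, sorted within the list (orange, called higher in labelled KO; blue, called lower; grey, not called). The triangle marks the lower bound for Adamts3, which had 0 counts in labelled WT. None of the 15 ER genes was called, and the 10 genes hold 2 called lower.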

How the data were processed

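The labels name 3 wells per group, poly-A libraries and total RNA. The authors deposited raw counts of reads per gene and log2 CPM values. The submitters' processing notes name STAR 2.7.2b, featureCounts, limma and GRCm38.p6, without their roles; whether counting used strand is not given in the sources used here. R 4.3.3 and edgeR 4.0.16 were used to test the counts (TMM factors, filterByExpr, quasi-likelihood F test, Benjamini-Hochberg adjustment over 14289 genes). Standard errors were derived from the F statistic. CPM used TMM-scaled library sizes, and levels per kb used the union of GENCODE M21 exons, to which 14822 of 14831 identifiers matched without their version. The deposited log2 CPM values served only as an alternative, tested with limma 3.58.1. Shares and ratios were tested with exact permutation tests. No pair of replicates agreed within sampling noise (chi-square per degree of freedom 2.47 to 7.53).

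The members and lists were chosen with earlier results of these data known. By rule, the text names the 10 genes, Gli2, Gli3, Plod3, Loxl4, P4hb, Col1a1, Col1a2, Col3a1, the called genes with the largest changes in each list (up to 4 per direction, or 3 for the hypoxia and ER stress lists), called markers above 10 CPM, and the 3 genes nearest to the members with the largest rise and fall. Other genes named were chosen after their values were seen. Alternatives were scaling by total counts, upper quartiles or RLE, no filter, at least 10 counts in every library, DESeq2 1.42.0, limma-voom, other fold limits, other transcript lengths and leaving out each library. The fit was tested on simulated counts. Intervals cover the spread between wells or, for floors, counting error only.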

Additional observations from a re-analysis of the deposited data

How the results depend on the processing

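Loxl1 was called lower under all 14 alternatives of scaling, filter, test and left-out library at the 1.5-fold limit (log2 fold change -1.20 to -1.10), and Loxl2 under 10 of them (-0.62 to -0.54). The count of 2 called genes among the 10 became 1 under upper-quartile scaling, total-count scaling or a 2-fold limit, and 6 without a fold limit. It ranged from 1 to 2 with single libraries left out. Loxl2 was the gene lost, at -0.54 under upper-quartile and -0.56 under total-count scaling. P4ha1, P4ha2, Lox and Loxl3 kept adjusted p values under 0.05 in all 14. The adjusted p of P4ha3 ranged from 0.00874 to 0.499, that of Plod1 from 0.0104 to 0.268, that of Plod2 from 0.0113 to 0.555 and that of Serpinh1 from 0.0254 to 0.781, so these 4 could pass without the fold limit under some settings. Without a fold limit, the 8 called genes of the ER, export and crosslinking lists became 29 and the 5 called collagens became 10. Of all tested genes 58.7% then passed.

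The log2 difference of Serpinh1 per type I collagen was 0.119 with longest transcript lengths against 0.0844 with exon unions. With single libraries left out, the difference in share ranged from 1.73 to 2.98 points for P4ha1, from 1.00 to 2.00 for Plod2 and from 11.6 to 12.3 for Lox. With longest transcripts, chosen for the level order after seeing the data, log2 ratios of neighbouring genes turned for P4ha1 to P4ha3 (-0.22 in labelled WT, -0.077 in labelled KO), Loxl3 to Plod2 in labelled WT (-0.33), and Loxl2 to Plod2 (-0.089) and Loxl1 to P4ha2 (-1.003) in labelled KO. Requiring at least 10 counts in every library left 6 called genes of the ER, export and crosslinking lists and 4 called collagens. The uncalled Col1a1 change ranged from -0.0198 to 0.0557 with single libraries left out, at -0.00542 without labelled WT replicate 2, -0.0198 without labelled WT replicate 3 and -0.0101 without labelled KO replicate 1. No paired analysis was possible because the labels give no shared replicate numbers. Groups of 3 limit exact tests to p = 0.1.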

Other observations

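Genes of ER protein folding were read beside the collagen enzymes because the hydroxylases and HSP47 reside in the ER. None of the 14 tested genes was called by edgeR, DESeq2 or limma-voom. Without the fold limit 9 were higher and 0 lower in labelled KO, the same counts as at an unadjusted p under 0.05. Over all tested genes, 29.9% were higher and 28.8% lower without the fold limit. The median log2 fold change of the 14 was 0.17. Herpud1, an ER-associated degradation factor, was at 95.2, 92.1 and 90.5 CPM in labelled WT and 135, 129 and 125 CPM in labelled KO (log2 fold change 0.48, adjusted p = 2.11e-07). Atf4, a stress-responsive transcription factor, had a log2 fold change of 0.36 (adjusted p = 3.80e-06), and the chaperone Hsp90b1 one of 0.24 (adjusted p = 8.89e-06).

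Of 17 tested hypoxia-response genes, 2 were called higher and 1 lower, against 11.6% and 6.1% of all tested genes. Without the fold limit 7 were higher and 9 lower, against 29.9% and 28.8% of all tested genes. Both genes called higher, Car9 and Egln3, fell out when each library had to hold 10 counts or more, which left 15 tested genes and Ankrd37 as their single call by edgeR. Car9, a carbonic anhydrase, had 0, 1 and 0 counts in labelled WT and 54, 67 and 61 in labelled KO. Egln3, a prolyl hydroxylase that acts on HIF, had 8, 8 and 7 counts against 13, 21 and 13 (log2 fold change 0.83, adjusted p = 0.0367), and lost the call under DESeq2 and without any of 5 single libraries. Ankrd37 had a log2 fold change of -0.61 (adjusted p = 0.000304), which missed 1.5-fold without labelled WT replicate 1 (-0.56) or labelled KO replicate 2 (-0.55). Its change also missed 1.5-fold under upper-quartile (-0.55) and total-count (-0.57) scaling. The glycolytic genes Aldoa (-0.39) and Eno1 (-0.34) and the stress gene Ndrg1 (0.46) differed in sign, so the list had no common direction.

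By the root mean square difference of centred log2 CPM over the 6 libraries, the genes nearest to Lox were Sept10 (0.00697), Lhfp (0.0158) and Gars (0.0165). Those nearest to Loxl1 were Olfml2b (0.0321), Cndp2 (0.0394) and Klf4 (0.0454). Nearness here largely reflects a similar difference between the groups (log2 fold changes of 0.34 to 0.36 for the genes nearest to Lox). Shared regulation was not tested. The largest mesothelial marker, Msln, had 77, 91 and 62 counts in labelled WT and 5949, 6904 and 5392 in labelled KO. Lrrn4 was at 1.12 and 27.5 CPM, Upk3b at 18.3 and 68.2 CPM, and the epithelial Krt7 at 4.38 and 23.1 CPM. Of 6 acinar markers only Cela1 was analysed here, and it was at 8.04 and 14.7 CPM.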
